A study of Mus musculus with 6 samples.

Results

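The genes described here are 10 genes of the hypoxia response and of glycolysis: Hif1a, Egln3, Slc2a1, Hk2, Pfkfb3, Pgk1, Ldha, Adm, Bnip3 and Ndrg1. They were taken by name, and every probe whose RefSeq accession maps to one of them was used, which gave 12 of the 56605 probes on the array and 10 of the 23462 genes the probes name. Their expression was measured in colon of 3 control mice and 3 Islr knockout mice, with 1 single-colour Agilent array per animal, to ask how loss of Islr, a secreted leucine-rich repeat protein, changed colonic gene expression. All 6 animals were male. By the sample source every animal, control or knockout, was given 3.5% dextran sulfate sodium, which damages the epithelial lining of the colon, for 5 days and then had 1 day of recovery, although the treatment field of the same labels states none. The labels give the genotypes as Control and Islr knockout, and they name no strain, age, promoter or Cre driver for the deletion.

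In well-oxygenated cells prolyl hydroxylases such as Egln3 mark the alpha subunits of hypoxia-inducible factor (HIF) for destruction. When oxygen falls, the HIF alpha subunits persist, pair with Arnt and bind short DNA elements of the genes they activate, among them glucose transporters, glycolytic enzymes and factors that act on vessels and mitochondria. The colonic surface epithelium lies next to the oxygen-poor lumen and works at low oxygen even in health, and inflamed colon consumes more oxygen still. The abundance of the HIF alpha protein is controlled mainly by this hydroxylation, so the level of Hif1a mRNA does not report it.

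The RefSeq promoter table (build GRCm38.p6, 250 bases before to 50 bases after a start) holds 11 promoters for 9 of the 10 genes, all but Ndrg1. They were searched on both strands for ACGTG, the core letters of the element HIF binds (CACGT on the other strand). The motif stood in 9 of these 11 promoters (81.8%), belonging to 8 genes, and in 6447 of all 32851 promoters (19.6%). The member promoters held 54.7% to 71.7% G and C, against a median of 52.7% over all promoters, and the part of base composition in this share was not tested. GCGTG, the other form of the core, searched on both strands likewise, stood in 6 of the 11 (54.5%) and in 32.4% of all promoters. The motif shown is the one nearest to the start site among those whose stretch of 30 bases lies fully upstream of it. It is given for Hk2, which had the largest difference, and for Hif1a, Slc2a1, Pgk1, Ldha and Bnip3. Egln3 and the Pfkfb3 promoters also held such a motif, which is not shown. Stretches read 5′ to 3′ on the gene's strand, with the motif in capitals.
Hif1a, chr12:73907785-73907814, plus strand: tggctgagagcaACGTGggctggggtgggg
Slc2a1, chr4:119108697-119108726, plus strand: gtcccgccccggACGTGctccccaggcccc
Hk2, chr6:82774489-82774518, minus strand: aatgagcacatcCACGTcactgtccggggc
Pgk1, chrX:106186957-106186986, plus strand: aaatggaagtagCACGTctcactagtctcg
Ldha, chr7:46845758-46845787, plus strand: cgtgggttcccgCACGTccgctgggctccc
Bnip3, chr7:138909596-138909625, minus strand: cgcacgcgccgcACGTGccacacgctcccc
The middle of the motif lies 68 bases upstream of the start in Hif1a, 34 in Slc2a1, 50 in Hk2, 129 in Pgk1, 32 in Ldha and 105 in Bnip3. ACGTG was not among the letters of the Adm promoter or of the other Ldha promoter, each of which held GCGTG 2 times. A match of 5 letters is a description of the sequence and shows no binding.

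Signals are given as log2 of the processed spot signal minus the array's 75th percentile, so a value of 0 is that percentile. The 75th percentile itself was 6353 to 7110 intensity units in controls and 4910 to 5820 in knockouts, so every knockout array was dimmer before scaling. The scanner software marked 3.26% to 16% of the spots of an array as outliers, and such spots were left out of the tests. The share was largest in control replicate 1 (13.6%) and knockout replicate 1 (16%), which lie in the same column of the slide. The controls occupied 1 row of the slide and the knockouts another, so slide row and genotype cannot be told apart. Islr itself, the check of the labels, was 5.42-fold lower in knockouts (log2 difference -2.44, SE 0.21, limma adjusted p 0.0171). Of 7 genes listed as surface colonocyte markers, all were well above background on all 6 arrays. The list holds Cdx2 and Vil1, so it is not confined to surface cells of the epithelium.

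None of the 9 testable genes passed the 5% false discovery rate in limma (0 of 9, where 3.82% of all 16451 genes tested passed, 1.35% higher and 2.47% lower; of all probes, 3.97% passed). With outlier spots kept, 0 of 10 passed in limma, where 4.47% of all genes did. At an unadjusted p under 0.05 there was 1, Hk2, against 28.2% of all genes tested. Of the 9, 6 were higher and 3 lower in the knockout (66.7% higher, against 51.2% of all genes), with a median log2 fold change of 0.26, where the median of all genes tested was 0.01. Without regard to direction the median size of the change was 0.30 in the 9 genes and 0.33 over all genes. By role, Hif1a, Egln3, the glucose transporter and the enzymes except Pfkfb3 had values above 0, and Pfkfb3 and the effectors Bnip3 and Ndrg1 had values below 0. The median came to -0.11 when control replicate 2 was omitted, to 0.0026 for control replicate 3 and to -0.16 for knockout replicate 2 or 3, where fewer of the genes could be fitted, and with outlier spots kept it was 0.10 to 0.34 over the fits that left out an array. These are differences in bulk tissue, where fewer cells of a type and less RNA per cell cannot be told apart.

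**Figure D1:**
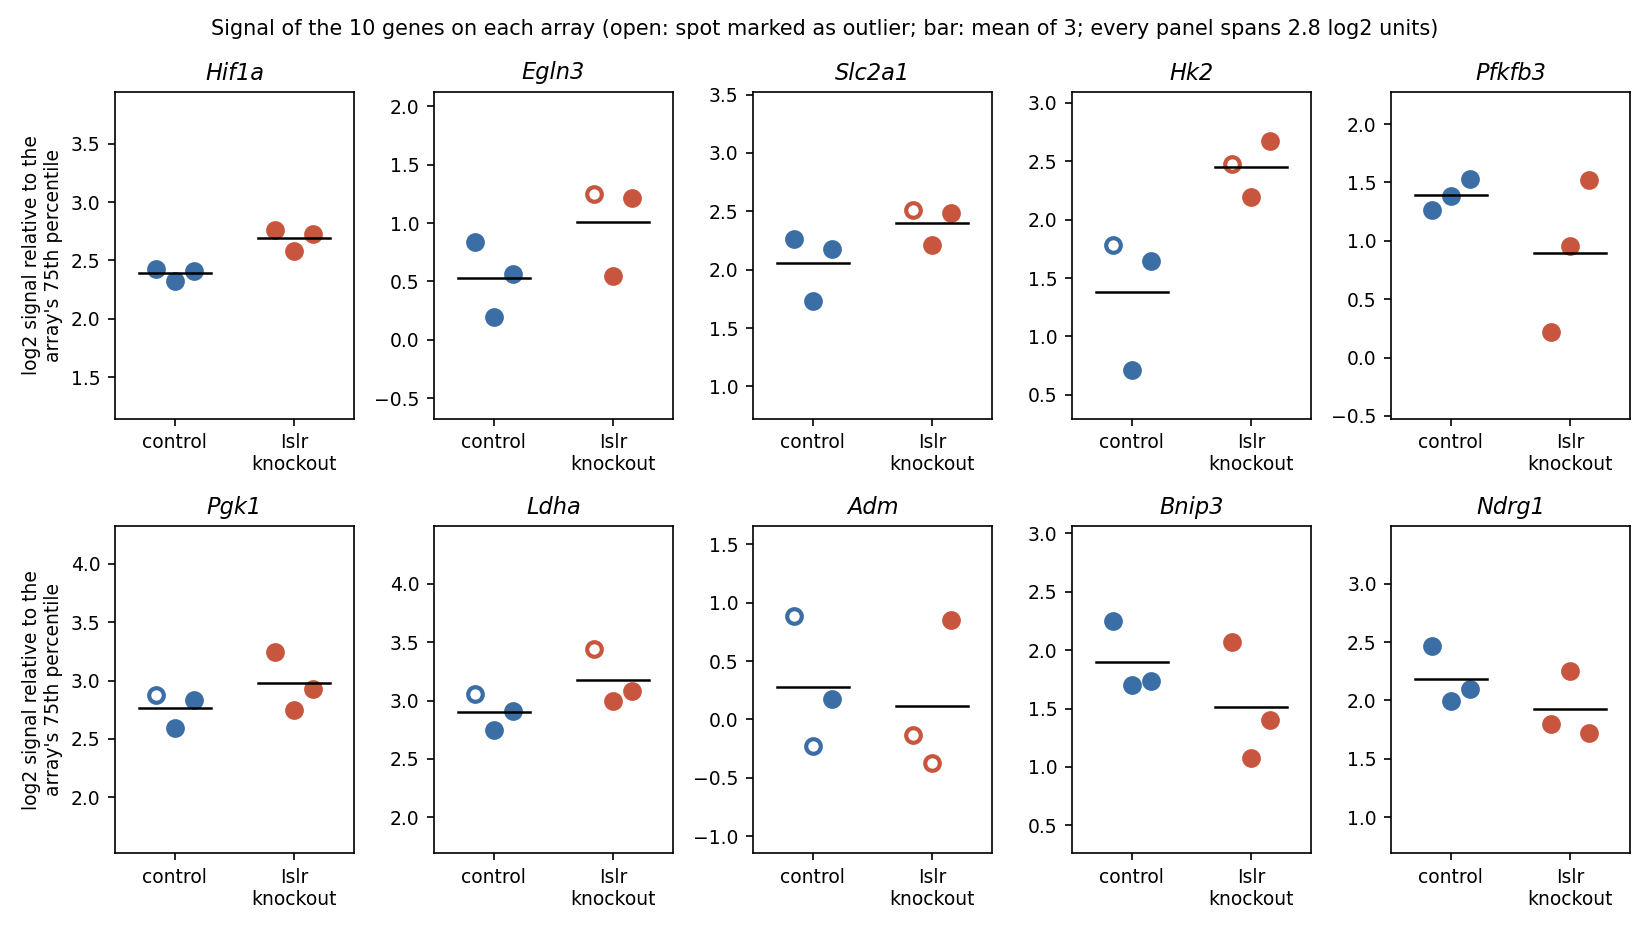
Each panel plots 1 gene, with log2 of the signal over the array's 75th percentile on the vertical axis and the 3 control and 3 Islr knockout arrays side by side; bars are means of 3 arrays, and open circles are spots marked as outliers. The groups are apart only for Hif1a and Hk2, and the Pfkfb3 values of knockouts run from 0.22 to 1.52.

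Hif1a encodes the oxygen-regulated subunit of HIF. With arrays always in the order of replicates 1, 2 and 3, its log2 signal was 2.43, 2.33 and 2.41 in controls against 2.76, 2.58 and 2.73 in knockouts. All knockouts lay above all controls, in a narrow range within each group (SD 0.05 in controls and 0.10 in knockouts). The difference was 0.30 (SE 0.14, 95% interval -0.04 to 0.64, limma adjusted p 0.228), a 1.23-fold higher signal. The SE is that of limma, which also draws on the spread of other probes. Before scaling the groups overlapped, with signals of 34226 to 35646 intensity units in controls and 33231 to 38186 in knockouts. With quantile normalization in place of the percentile the difference was 0.14 (limma adjusted p 0.464), the lowest of the 20 alternatives. With median centring it was 0.33 (limma adjusted p 0.287), and the highest alternative gave 0.36. The Hif1a groups were apart after scaling and not before it.

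Egln3 encodes a prolyl hydroxylase that is itself a HIF target. Its values were 0.84, 0.19 and 0.56 in controls and 1.25, 0.55 and 1.21 in knockouts, where the first knockout value is an outlier spot. The groups overlapped, since knockout replicate 2 lay below control replicates 1 and 3. The difference was 0.35 (SE 0.30, 95% interval -0.39 to 1.09, limma adjusted p 0.492).

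Hk2, hexokinase, which commits glucose to the cell by phosphorylating it, had the largest difference among the 10 genes. Its log2 signal was 1.79 (an outlier spot), 0.71 and 1.65 in controls and 2.47 (an outlier spot), 2.19 and 2.68 in knockouts. Every knockout lay above every control, and control replicate 2 was the lowest by a wide margin. With outlier spots left out the difference was 1.25 (SE 0.40, 95% interval 0.22 to 2.29, n = 2 arrays per group), a 2.39-fold higher signal, and the limma adjusted p was 0.135. With these spots kept, and n = 3 per group, the mean was 1.38 ± 0.58 in controls and 2.45 ± 0.24 in knockouts (SD) and the difference was 1.06 (SE 0.31, limma adjusted p 0.0899). It was 0.73 when control replicate 2 was left out of that fit. Two-sided, exact permutation of 6 arrays cannot reach a p below 0.1 for a single gene.

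Slc2a1 encodes the basal glucose transporter GLUT1. Control values were 2.26, 1.73 and 2.18, and knockout values were 2.51 (an outlier spot), 2.21 and 2.48. Control replicate 2 was again the lowest of its group, and knockout replicate 2 fell inside the control range. The difference was 0.29 (SE 0.23, 95% interval -0.29 to 0.87, limma adjusted p 0.469).

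Pfkfb3 makes fructose 2,6-bisphosphate, the main activator of phosphofructokinase. Of the enzymes it was the one with a value below 0. Controls were close together, at 1.26, 1.39 and 1.53. Knockouts were spread, at 0.22, 0.96 and 1.52, and knockout replicate 3 was level with the highest control. The difference was -0.49 (SE 0.33, 95% interval -1.27 to 0.28, limma adjusted p 0.373), and it was -0.15 without knockout replicate 1 and -0.80 without knockout replicate 3. A second Pfkfb3 probe was not well above background on any of the 6 arrays and was not tested.

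Pgk1 and Ldha act in the payoff steps, Pgk1 making ATP and Ldha turning pyruvate into lactate. Pgk1 was at 2.88 (an outlier spot), 2.59 and 2.83 in controls against 3.25, 2.75 and 2.92 in knockouts. The Ldha probe used for the gene was at 3.06 (an outlier spot), 2.74 and 2.91 in controls and at 3.44 (an outlier spot), 3.00 and 3.08 in knockouts. In both genes the groups overlapped and knockout replicate 1 was the highest array. The difference was 0.26 for Pgk1 (SE 0.22, 95% interval -0.29 to 0.81, limma adjusted p 0.491). For Ldha it was 0.21 (SE 0.20, 95% interval -0.32 to 0.74, limma adjusted p 0.555). A second, dimmer Ldha probe had 3 outlier spots and could not be tested; with them kept it differed by 0.41 (SE 0.36, limma adjusted p 0.502).

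The 3 hypoxia-inducible effectors are Adm, a vasodilator peptide that also acts on endothelial barriers, Bnip3, a mitochondrial protein of mitophagy, and Ndrg1, a stress-responsive protein of epithelial differentiation. Bnip3 was at 2.25, 1.70 and 1.74 in controls and at 2.07, 1.07 and 1.40 in knockouts. Knockout replicates 2 and 3 lay below all controls and knockout replicate 1 did not. The difference was -0.38 (SE 0.30, 95% interval -1.09 to 0.33, limma adjusted p 0.447). Ndrg1 was at 2.47, 1.99 and 2.10 in controls and at 1.80, 2.26 and 1.72 in knockouts, and here knockout replicate 2 was the array inside the control range. The difference was -0.26 (SE 0.22, 95% interval -0.78 to 0.25, limma adjusted p 0.474).

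Adm could not be tested, because 4 of its 6 spots were marked as outliers. With all spots kept it was at 0.88, -0.23 and 0.18 in controls against -0.13, -0.38 and 0.85 in knockouts. The groups covered much the same range, and the difference was -0.16 (SE 0.41, 95% interval -1.13 to 0.80, limma adjusted p 0.821). The usable values were those of control replicate 3 and knockout replicate 3 alone.

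**Figure D2:**
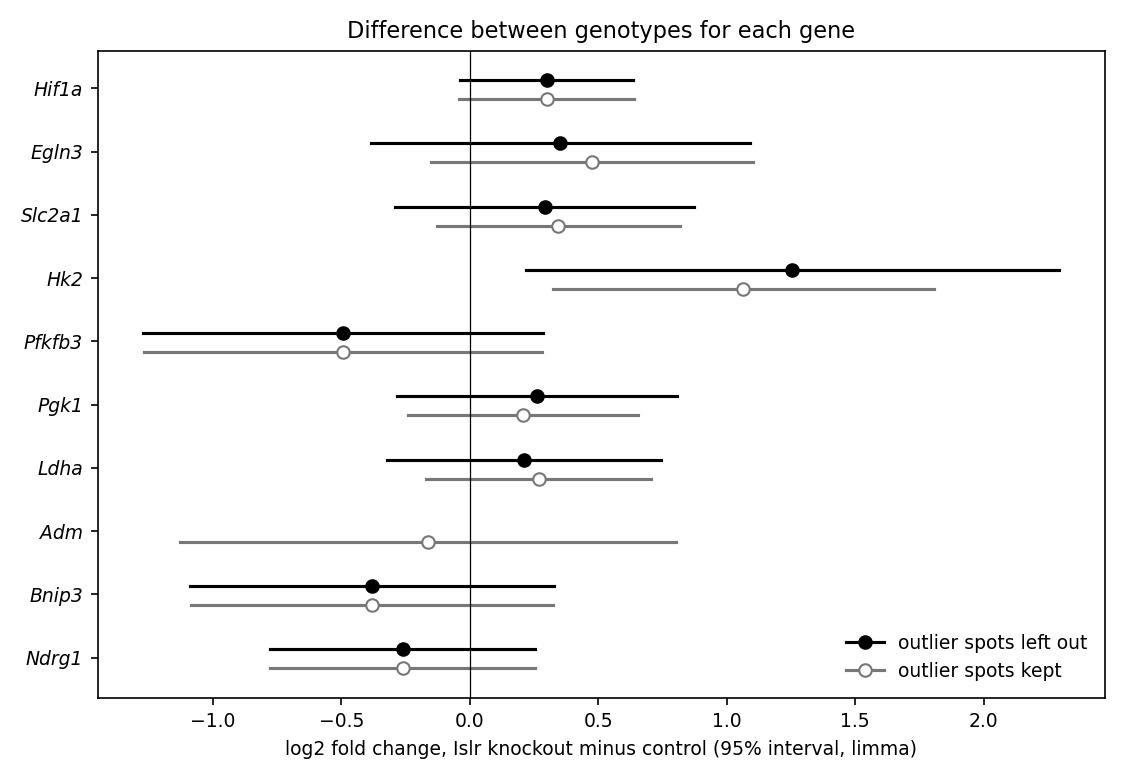
The horizontal axis gives the log2 fold change, knockout minus control, with its 95% interval from limma, for each of the 10 genes, with outlier spots left out (filled) and kept (open). Only the interval of Hk2 lies wholly above 0 (0.22 to 2.29 with outlier spots left out); Adm has a value only with outlier spots kept.

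The intervals set what these arrays can show. For Hif1a the interval reaches at most a 1.55-fold higher signal, for Ldha 1.67-fold and for Pgk1 1.75-fold, so larger rises of these 3 lie outside it. For Egln3 and Hk2 it extends to 2.13-fold and 4.90-fold, and changes of that size are not distinguishable from smaller ones here. With all spots kept, the groups did not overlap for 2 of the 10 genes, against 38.3% of the 17865 genes tested in that way.

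The order of the arrays within a genotype was not used by the rule. Of the 10 genes, 4 had an outlier spot in control replicate 1 and 5 in knockout replicate 1. With all spots kept, control replicate 1 was the highest control for 9 of the 10 genes, all but Pfkfb3, and control replicate 2 the lowest for 9. Among the 7694 genes with a mean above the 75th percentile these shares were 46.1% and 44.8%. In knockouts replicate 2 was the lowest for 8 of the 10 genes, against 47.3% of the bright genes, and replicate 1 the highest for 6, against 61.1%, with other orders in Pfkfb3, Ndrg1, Hk2 and Adm. Replicate spread was close to that of other genes, with a median SD of 0.27 in controls and 0.27 in knockouts over the 10 genes and of 0.22 and 0.24 over all genes.

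Hk2, the gene with the lowest unadjusted p, was also the one used to look for genes of like pattern. Over the 6 arrays, with outlier spots kept for Hk2, those most like it among 12962 genes included Cyp51 (Pearson r = 0.998), Gm128 (0.997), Elovl2 (0.996) and Tnfrsf21 (0.994). Cyp51, an enzyme of cholesterol synthesis, was at 1.37, 0.72 and 1.36 in controls against 1.91, 1.70 and 2.05 in knockouts. It shared with Hk2 both the low control replicate 2 and the high knockouts. With 6 arrays in 2 groups such a correlation is a description. None of these 4 passed the threshold in limma (adjusted p 0.101 to 0.107).

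Around the 10 genes, 70 further genes of the pathway were examined, of which 62 could be tested. Of these 2 were called, 0 higher and 2 lower (either direction, 3.82% of all genes; lower, 2.47%). At an unadjusted p under 0.05 there were 15, 3 higher and 12 lower, beside 28.2% of all genes tested (2247 higher and 2390 lower). The median log2 fold change of the 62 was 0.15. When single arrays were omitted, the count was 0 for control replicate 2 or 3 or knockout replicate 3, 1 for knockout replicate 2, 2 for knockout replicate 1 and 5 for control replicate 1, with 46 to 61 of the 62 genes testable.

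**Figure D3:**
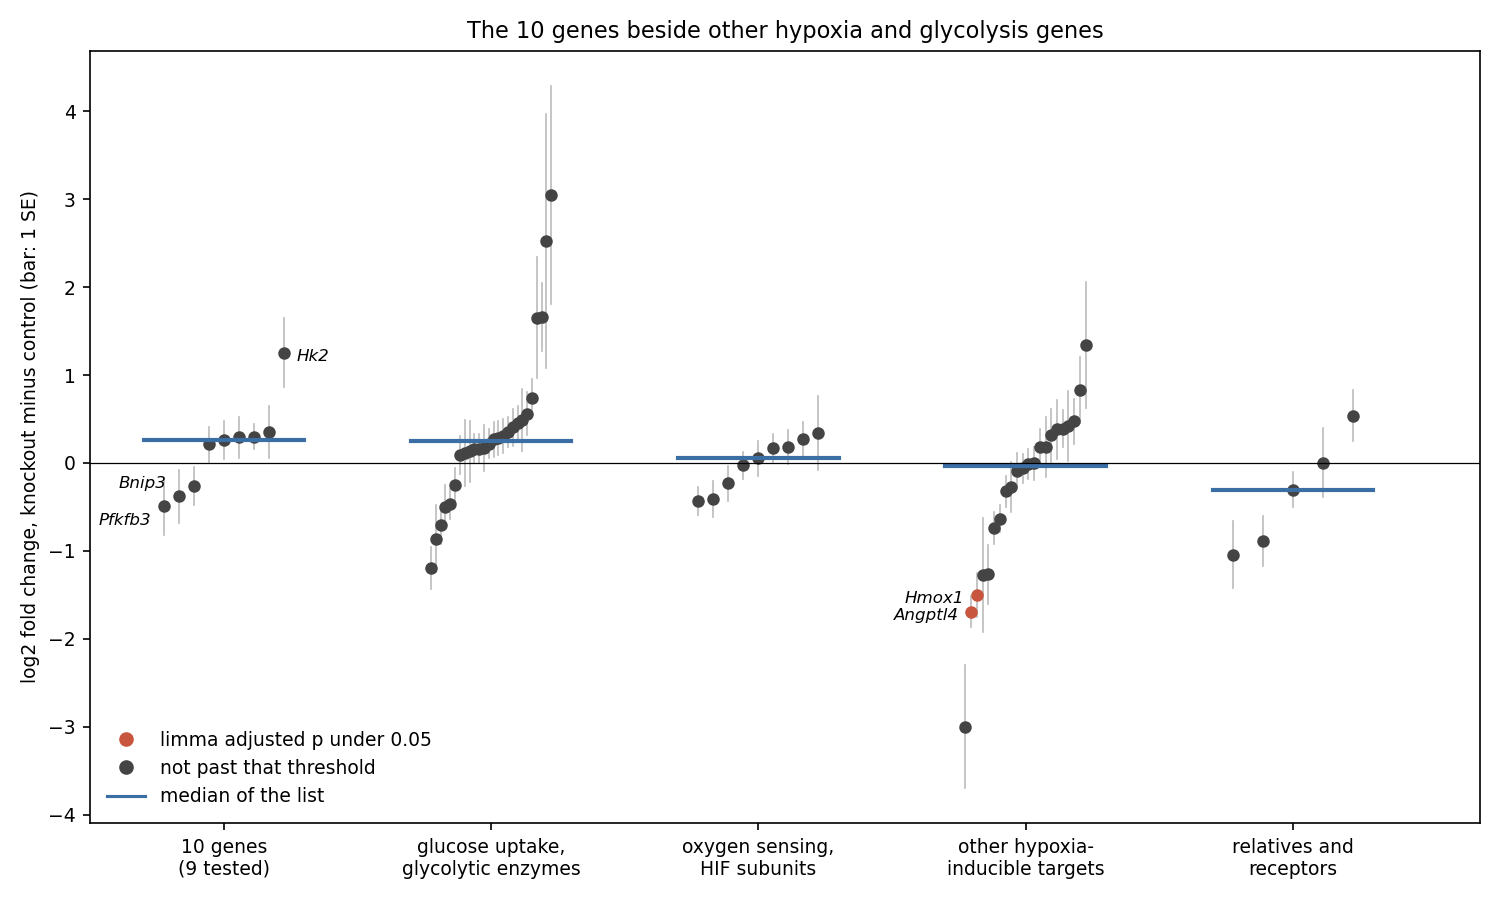
Points are genes, 1 column per list, with the log2 fold change, knockout minus control, on the vertical axis, bars of 1 SE and the list's median as a line; the genes past the threshold and the 3 of the 10 genes with the largest change are named. Angptl4 and Hmox1, both lower in knockouts, are the only points past the threshold, and Hk2 is the highest of the 10 genes.

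Glucose uptake and glycolytic enzymes beyond the 5 above numbered 29, of which 26 were tested and 0 called in limma (6 at an unadjusted p under 0.05, 3 in each direction); 20 were higher and 6 lower, with a median of 0.25. Pck1, which starts gluconeogenesis, was at 1.41, -4.60 and -2.51 in controls and 1.67, 0.53 and -0.33 in knockouts. Its controls differed among themselves by more than the groups did (difference 2.52, SE 1.44, limma adjusted p 0.309). It ranged from 1.17 without control replicate 2 (adjusted p 0.652) to 4.18 without control replicate 1 (adjusted p 0.0461), and only the last fit passed. The summed signal of the 7 genes listed as surface colonocyte markers, each scaled by its array, was also lowest in control replicate 2 and higher in every knockout. It was 38.4, 9.57 and 23.9 in controls and 60.6, 46.8 and 46.8 in knockouts, with 0 of the 7 called in limma. Its part in the values of Pck1 and Hk2 was not tested.

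Eno3, the enolase of muscle, was at 1.94, 0.53 and 1.17 in controls and 3.28, 2.50 and 2.83 in knockouts. All knockouts lay above all controls, and the difference was 1.66 (SE 0.38, limma adjusted p 0.0616), a 3.15-fold higher signal. It passed when control replicate 1 was left out (2.02, limma adjusted p 0.0371). In the other fits that left out an array the limma adjusted p was 0.0702 to 0.146. It passed with normexp background correction (0.0415) and with array weights (0.0141). With the slide column as a block and outlier spots kept it did not (0.136). Beside it the summed signal of 8 skeletal muscle markers was 2.35 to 3.19 in controls and 6.53 to 11.1 in knockouts, with 7 of 8 higher and 3 called. That of 6 smooth muscle markers was 40.9 to 50.8 in controls and 56.2 to 66.2 in knockouts, with 5 of 5 tested higher and 0 called in limma. The part of muscle in the Eno3 value was not tested.

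The isozymes of the 10 genes did not all share their sign; these were picked out after their values were seen, and differences between isozymes were not tested. Beside Hk2, Hk1 differed by 0.46 (SE 0.20) and Hk3, a hexokinase of myeloid cells, by -0.86 (SE 0.38). Beside Pfkfb3 at -0.49, Pfkfb2 differed by 0.74 (SE 0.22) and Pfkfb4 by 0.56 (SE 0.24). Slc2a3, the transporter GLUT3 of neurons and leukocytes, differed by -0.47 (SE 0.17), where Slc2a1 had 0.29. Slc16a3, which exports lactate, was at 1.11, 0.76 and 0.58 in controls and -0.07, -0.28 and -0.79 in knockouts, with no overlap. Its difference of -1.19 (SE 0.24) lay just outside the threshold (limma adjusted p 0.0505) and inside it with outlier spots kept (0.0470).

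Oxygen sensors and HIF subunits other than Hif1a and Egln3 numbered 9. All 9 were tested and 0 called in limma (1 at an unadjusted p under 0.05), with values from -0.43 to 0.34 and a median of 0.05. The largest was that of a dim probe of Arnt, the partner of the HIF alpha subunits, at -2.29, -2.08 and -2.21 in controls and -2.82, -2.52 and -2.55 in knockouts (difference -0.43, SE 0.16, limma adjusted p 0.143). A brighter Arnt probe could not be tested for outlier spots, and with them kept it differed by -0.15 with overlapping groups (limma adjusted p 0.552). Cited2, an inhibitor of HIF at its coactivator, differed by -0.41 (SE 0.21) with knockout replicate 1, an outlier spot, left out. With that spot kept it differed by -0.13 with overlapping groups (limma adjusted p 0.783). Hif3a differed by 0.34 (SE 0.42), and by 0.71 (SE 0.56) at a dimmer probe. The hydroxylases Egln1 and Egln2 differed by 0.27 (SE 0.19) and 0.17 (SE 0.16), on the same side of 0 as Egln3.

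Other hypoxia-inducible targets numbered 25, of which 22 were tested, and the 2 called genes were both here and both lower (9 higher and 13 lower in all, median -0.03). Angptl4, a secreted inhibitor of lipoprotein lipase, was at 2.62, 2.47 and 2.45 in controls and 0.85, 1.04 and 0.57 in knockouts. Each group was tight, and the 3 knockouts lay far below the controls. It fell by 1.69 on the log2 scale (SE 0.17, limma adjusted p 0.0171), a 3.23-fold lower signal. The adjusted p was 0.0633 without control replicate 2, 0.0549 without control replicate 3 and 0.0562 without knockout replicate 3, with the difference between -1.57 and -1.80 in all 6 fits that left out an array.

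Hmox1, which degrades heme and answers oxidative stress as well as hypoxia, was at 1.56 (an outlier spot), 0.72 and 0.15 in controls against -0.98, -0.90 and -1.32 in knockouts. The groups did not overlap. It fell by 1.501 on the log2 scale (SE 0.25, limma adjusted p 0.0441), a 2.83-fold lower signal. The adjusted p was 0.0930, 0.0609 and 0.106 without knockout replicate 1, 2 and 3, and 0.0679 with no filter on dim probes; without control replicate 2 or 3 it had too few usable values. P4ha1, a collagen prolyl hydroxylase, was not called at its brighter probe (-0.63, SE 0.15), whereas a dimmer probe was (-0.89, SE 0.17, limma adjusted p 0.0441). For Vegfa, the vascular growth factor, the brightest probe differed by -0.32 (SE 0.18), whereas another of its 4 probes differed by 0.38 (SE 0.17), so its probes disagree in sign. Car9, a carbonic anhydrase, differed by 0.83 at its brighter probe (SE 0.38; 1.14 with outlier spots kept, limma adjusted p 0.0865) and by 2.35 at the other (SE 0.90, limma adjusted p 0.156), with the groups apart at both. Vegfa, Car9 and P4ha1 were picked out after their values were seen. With the slide column as a block and outlier spots kept, the differences were -1.83 for Angptl4 and -2.29 for Hmox1, and neither passed (limma adjusted p 0.124 for each).

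Summed marker signals of other cell types were lower in knockouts beside these falls. Neutrophil markers summed to 19.7 to 21.1 in controls and 10.2 to 10.9 in knockouts. Of the 6 tested, 5 were lower and all 5 called, with a median log2 fold change of -3.79 over the 6. Macrophage markers summed to 12.7 to 18.5 in controls and 9.37 to 11.7 in knockouts (4 of 5 lower, median -0.75). Endothelial markers summed to 8.93 to 10.7 and 2.62 to 6.10 (5 of 5 lower, median -1.36). Fibroblast markers summed to 29.7 to 34.8 and 16.7 to 24.7 (5 of 5 lower, median -0.63). Sums cover all genes of a list and weigh the brightest most, while counts and medians cover those tested. Markers of proliferating cells summed to 4.81 to 11.8 in controls and 4.38 to 7.81 in knockouts, with overlap (6 of 6 lower, median -0.72). Genes listed as surface colonocyte markers were higher in 7 of 7 (median 1.58). In limma 0 markers of the macrophage, endothelial, fibroblast, proliferating cell and surface colonocyte lists were called. Of all genes tested, 51.2% were higher in knockouts. Every marker of these lists was well above background on at least some of the 6 arrays, and 6 of the 7 neutrophil markers on all 6. The part of these cells in the falls of Angptl4 and Hmox1 was not tested.

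Receptors of Adm and relatives of Ndrg1 numbered 7, of which 5 were tested and 0 called in limma (2 at an unadjusted p under 0.05). Ramp3 and Ramp2, which turn the receptor Calcrl into the receptor for Adm, were lower on all 3 knockout arrays than on any control. Ramp3 was at -0.68, 0.03 and -0.47 in controls and -2.22, -0.93 and -1.09 in knockouts (difference -1.04, SE 0.38, limma adjusted p 0.142). Ramp2 differed by -0.89 (SE 0.28, limma adjusted p 0.121). The endothelial marker sums given above were lower on the same arrays, and their part was not tested. Calcrl had 5 outlier spots and was not tested. Among the relatives, Ndrg3 differed by 0.54 (SE 0.29, limma adjusted p 0.283) and Ndrg4 by -0.30 (SE 0.20). Their dimmer probes gave other values, 1.37 for Ndrg3 (SE 0.33, limma adjusted p 0.0652, groups apart) and 0.19 for Ndrg4 (SE 0.30), which is of the opposite sign.

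**Figure D4:**
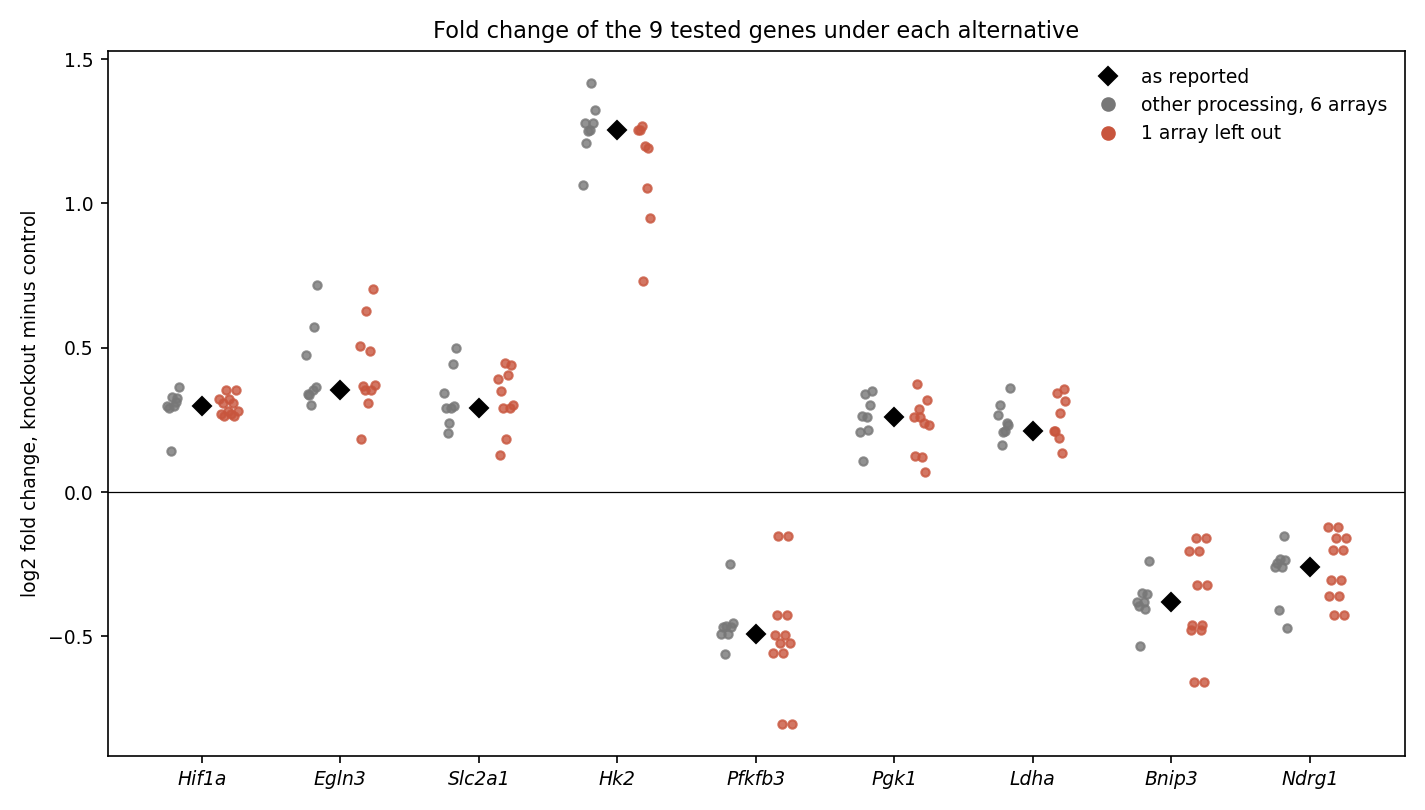
The vertical axis gives the log2 fold change, knockout minus control, of the 9 tested genes as reported (diamonds), under other processing of the 6 arrays (grey) and with 1 array left out (red). Each gene keeps its side of 0 in every fit drawn, and Hk2 ranges from 0.73 to 1.42.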

How the data were processed

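Colon RNA of 6 mice was measured with 1 single-colour array each. The deposited spot signal is an intensity on a linear scale, background-subtracted by Agilent Feature Extraction 11.5.1.1 and not scaled between arrays, per the file headers; the submitters' processing notes name an earlier version. The labels name Cy3 and a green column, whereas the files hold the red channel, which was used. The series' value table, also intensities, matched the deposited scanner signals (log2 correlation of at least 0.999999) and served as an alternative.

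Control spots were dropped, log2 signals were scaled to the array's 75th percentile, spots marked as non-uniform or population outliers were set to missing, and spots of a probe were averaged. A probe was tested if well above background on all 3 arrays of a group with at least 2 usable values in each group: 35351 of 56605 probes, 16451 genes. Probes were named by RefSeq accession (GRCm38.p6 table, 33767 probes, 59.7%). Their deposited positions are on mm9, so no probe coordinates are given. The promoter coordinates are those of GRCm38.p6. The brightest tested probe stood for a gene. Genotypes were compared in R 4.3.3 by limma 3.58.1 (functions lmFit and eBayes, two-sided p-values) and Benjamini-Hochberg adjustment over all tested probes at 5%. Simulated data with independent noise served to check the sign and size of planted differences, not the 5% rate on these arrays. The number of arrays limits the precision. The p-values, SEs and intervals set each difference against the spread of arrays within a genotype, which holds animal and array variation together. The function eBayes draws the spread of each probe towards that of the other tested probes. An SE is therefore not that of the gene's own arrays alone.

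The genes and lists were chosen with earlier results of these data known. Named are the 10 genes with every probe, called genes of 4 further lists, the 3 largest changes in each list, and the 5 genes most like the gene of lowest p; other names were added after their values were seen, and some genes that the rule takes are not reported here. Alternatives covered outlier spots, background correction (normexp, offset 50), scaling, filter, array weights, value table, probe choice and leaving out each array, the last also with outlier spots kept, which was added later, as was the slide column as a block.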

Additional observations from a re-analysis of the deposited data

How the results depend on the processing

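The 9 tested genes kept their direction in every alternative in which they could be fitted, and none of them was called in any. Hk2, for instance, had limma adjusted p-values from 0.0578 to 0.215 over them. All these alternatives scaled the arrays. Before scaling, Pgk1 signals were 42946 to 46647 intensity units in controls and 39169 to 46664 in knockouts. Those of Ldha, at the probe used for the gene, were 47646 to 52916 and 46482 to 53355. With quantile normalization the median of the 9 genes was 0.14. Their median log2 fold change ranged from -0.16 to 0.26 when 1 array was left out, where only 5 or 6 genes were testable without control replicate 2 or 3 or knockout replicate 2 or 3, and from 0.10 to 0.34 with outlier spots kept as well; Adm, fitted only in this way, ranged from -0.53 to 0.14. The number of the 62 other hypoxia and glycolysis genes called was 4 with outlier spots kept, 5 with normexp, 4 with quantile normalization, 1 with no filter on dim probes and 11 with array weights, and from 0 to 5 when 1 array was left out, with 46 to 61 of the 62 testable. The number of all probes called was 2558 with normexp (1306 of them higher), 2185 with quantile normalization, 2249 with median centring, 484 with no filter and 7320 with array weights (3640 higher), against 1403 (548 higher), and from 40 to 2114 when 1 array was left out. The cause of these shifts was not tested, other than that fewer samples enter when an array is left out and more probes are adjusted over with no filter. No paired analysis was possible because the labels give no replicate numbers, and those used here only name the animals. With the column of the slide as a block and outlier spots kept, chosen after seeing the data, 2 columns held both genotypes and 1 residual degree of freedom was left. In limma 0 of the 62 genes and 0 of all probes then passed, with 9806 probes at an unadjusted p under 0.05, and the 10 genes had a median of 0.36 and a lowest adjusted p of 0.190. With outlier spots left out, Hk2 and Ldha rest on 2 arrays per group.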

Other observations

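Of the 8 pathway genes that could not be tested, 7 had too many outlier spots and 1, Fbp1, was well above background on 0 control arrays and 1 knockout array. With outlier spots kept, Nt5e, the ectoenzyme that makes adenosine, was 1.38 higher on the log2 scale in knockouts (limma adjusted p 0.0323), a value that rests on 3 knockout spots all marked as outliers. In the same setting Edn1 differed by 1.13 (limma adjusted p 0.273), Calcrl by -1.16 (0.0921), Slc16a1 by 0.43 (0.257), Mxi1 by 0.30 (0.568), Pdha1 by 0.27 (0.342) and Ndrg2 by 0.14 (0.679).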
